A study of Mus musculus with 4 samples.

Results

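The genes described here are *Alb*, *Afp* and *Afm*, albumin family genes that lie next to each other on mouse chromosome 5, and their relative *Gc*. Every probe set that the array annotation assigns to one of these symbols alone was taken, whatever its value, which gave 8 of the 45101 probe sets on the array. The annotation names 18193 genes in this way. *Afp* had 5 of the 8 probe sets, *Afm* 2 and *Alb* 1. The annotation used here pairs no probe set with *Gc* alone, so *Gc* was not analysed here and 3 of the 4 genes had values.

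The data are mRNA profiles of non-tumorous liver from 2 WT and 2 G9aKO mice, each hybridised to 1 Affymetrix GeneChip mouse array, in order to find genes whose expression depends on the histone methylase G9a. WT mice were Alb-Cre; G9a+/+ and G9aKO mice were Alb-Cre; G9aflox/flox, so that both groups carried the Cre transgene and differed in the floxed alleles. Cre recombinase is driven by the promoter of albumin, one of the genes described here, and is therefore made in hepatocytes, while most other liver cells keep G9a. All were male progeny of mice backcrossed with C57BL/6, 30 weeks old, and had received the carcinogen diethylnitrosamine (DEN, 25 mg/kg) at 15 days of age and then 22 weekly injections of the hepatotoxin CCl4 (0.5 ml/kg). The labels do not say whether the mice were littermates.

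Albumin, the main protein of adult plasma, and α-fetoprotein, its counterpart in fetal plasma, are both secreted by hepatocytes, and afamin, the product of *Afm*, carries vitamin E. The vitamin D-binding protein encoded by *Gc* also scavenges actin released from injured cells. *Afp* is strongly expressed in fetal liver and silenced after birth, while *Alb* stays on, and α-fetoprotein is known as a serum marker of hepatocellular carcinoma and of liver regeneration.

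*Alb*, *Afp* and *Afm* are read in the same direction, and their annotated starts lie 29.8 and 28.2 kb apart in RefSeq's GRCm38.p6 assembly, while *Gc* lies 1003 kb before *Alb* on the opposite strand. The 250 bases before each start are shown for the 3 genes with values, because *Afp* stood apart from both of its neighbours when the genotypes were compared. Capitals mark each match to TATAAA, the core of the TATA box that places the start of transcription, on the strand of the gene. The promoters are chr5:90460620-90460869 for *Alb*, chr5:90490464-90490713 for *Afp* and chr5:90518699-90518948 for *Afm*, all on the plus strand.
Alb: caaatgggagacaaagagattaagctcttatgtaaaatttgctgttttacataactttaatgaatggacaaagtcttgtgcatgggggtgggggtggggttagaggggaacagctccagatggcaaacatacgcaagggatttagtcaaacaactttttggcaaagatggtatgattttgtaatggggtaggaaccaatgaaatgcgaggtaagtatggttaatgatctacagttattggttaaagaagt
Afp: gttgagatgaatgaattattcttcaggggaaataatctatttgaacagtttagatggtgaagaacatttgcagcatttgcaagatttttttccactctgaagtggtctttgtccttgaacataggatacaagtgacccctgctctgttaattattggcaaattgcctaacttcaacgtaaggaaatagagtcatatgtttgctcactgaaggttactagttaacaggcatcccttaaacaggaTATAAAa
Afm: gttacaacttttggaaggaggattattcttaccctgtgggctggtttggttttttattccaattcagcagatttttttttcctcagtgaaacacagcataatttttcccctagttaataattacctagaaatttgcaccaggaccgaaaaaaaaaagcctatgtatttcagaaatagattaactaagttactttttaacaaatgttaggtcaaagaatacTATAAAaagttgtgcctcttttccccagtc

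The TATAAA match began 7 bases before the annotated start of *Afp* and 30 before that of *Afm*, and *Alb* had none in this window. Over all 32851 promoters of this length in the RefSeq table, 7.59% held a match on the strand of the gene. A match of letters describes the sequence and not the binding of a factor, and no match says only that these letters are not in the window.

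The arrays were alike in the share of Present calls and in the level of Absent signals. Deposited were MAS5 signals, linear intensities that come with a call of Present, Marginal or Absent. Their trimmed mean was 500.0 on every array, a value set by the scaling of the signals, so it cannot compare overall brightness. Of the probe sets, 41.3% to 43.9% were Present. The 95% quantile of Absent signals was 170.5 to 180.88, so that differences below about that level are less certain, also where a call was Present. Log2 signals correlated at 0.9703 and 0.9708 within a genotype and at 0.9588 to 0.9668 between genotypes. *Ehmt2*, the gene of G9a, had signals of 640.4 and 492.5 in WT liver, both Present. In G9aKO liver they were 174.1 and 163.7, both Absent. The geometric mean of the deposited signals was 3.33-fold higher in WT (limma adjusted p = 0.0612). Whether that probe set lies within the deleted exons was not determined, and the other probe set of *Ehmt2* was never called Present.

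Geometric mean *Afp* signal in G9aKO liver was 5.49 to 11.0 times that in WT liver at its 3 tested probe sets. *Alb* and *Afm* signals overlapped between the genotypes. The genotypes were compared by limma, on log2 signals of the 17158 probe sets that name 1 gene and were Present on at least 2 arrays, of which 48 passed a Benjamini-Hochberg adjusted p under 0.05 (0.28%), with 40 higher (0.233%) and 8 lower (0.0466%) in G9aKO liver. Of the 8 member probe sets, 6 were tested, and none passed this threshold in either direction. At an unadjusted p under 0.05, 3 member probe sets were higher and 0 were lower, where 5.36% and 3.95% of all tested probe sets were. Among the 6 tested, these 3 were also the ones whose groups did not overlap, with G9aKO above, as for 21.7% of all tested probe sets. All of them measure *Afp*, so they count as 1 gene and not as 3 observations.

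**Figure D1:**
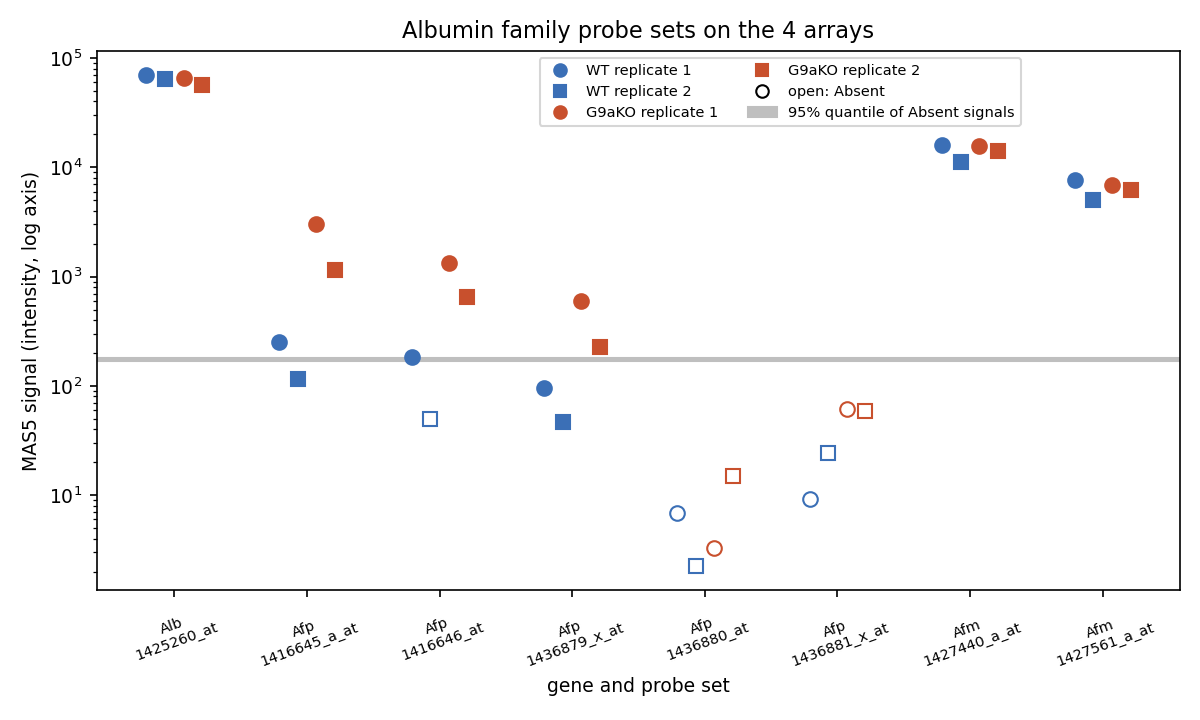
MAS5 signal (intensity, log axis) of each albumin family probe set on the 4 arrays, WT in blue and G9aKO in red, with open symbols for Absent calls and the grey line at the 95% quantile of Absent signals. At the 3 *Afp* probe sets called Present, both G9aKO arrays lie above both WT arrays, while the 4 arrays overlap for *Alb* and *Afm*; heights of different probe sets cannot be compared.

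The brightest *Afp* probe set, 1416645_a_at, had signals of 252.4 and 115.6 in WT liver and of 3058 and 1159 in G9aKO liver, all 4 Present. Both G9aKO arrays lay above both WT arrays, and the arrays of each genotype also differed from each other, 2.18-fold in WT and 2.64-fold in G9aKO. The group means were 184.0 ± 96.7 and 2108 ± 1343 (SD, n = 2 each). The fold between geometric means was 11.0 (95% interval 4.62 to 26.2), a log2 difference of 3.46 (SE 0.52, limma adjusted p = 0.0857). Among the 17158 tested probe sets this was the 19th largest log2 difference upward and the 77th smallest p. Without the second G9aKO array the difference was 4.16 and passed (adjusted p = 0.0166), and over the other alternatives tested it lay between 2.76 and 4.03 and did not pass.

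The second *Afp* probe set, 1416646_at, had signals of 184.7 and 50.05 in WT liver, the latter Absent, and of 1344 and 651.2 in G9aKO liver. The log2 difference was 3.28 (SE 0.63, adjusted p = 0.155 from limma), and 2.38 with all signals raised to the 95% quantile of Absent signals on their array. The third, 1436879_x_at, whose suffix marks probes that can also match other transcripts, had signals of 96.55 and 46.46 in WT liver and of 597.1 and 226.4 in G9aKO liver. Here the log2 difference was 2.46 (SE 0.56, adjusted p = 0.229 from limma), although both WT signals were in the range where Absent calls are common. With signals raised in the same way it was 1.09. The 3 probe sets put the arrays in the same order, with the first G9aKO array highest, then the second, then the first and the second WT array.

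Ratios of single arrays gave the range behind these means. A G9aKO array was 4.59 to 26.4 times a WT array at 1416645_a_at, 3.53 to 26.9 times at 1416646_at and 2.35 to 12.9 times at 1436879_x_at. The highest of these ratios divide by WT signals under the 95% quantile of Absent signals, of which that of 1416646_at was called Absent. With signals raised to that quantile, the ranges were 4.59 to 17.5, 3.53 to 7.69 and 1.29 to 3.5. As measured, the lowest ratio was above the larger ratio between 2 arrays of a genotype for 1416645_a_at (2.64), and below it for 1416646_at (3.69) and 1436879_x_at (2.64).

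The remaining *Afp* probe sets were Absent on all 4 arrays and were not tested. Signals of 1436880_at were 6.812 and 2.254 in WT liver and 3.264 and 15.01 in G9aKO liver, and those of 1436881_x_at were 9.257 and 24.23 in WT liver and 61.06 and 59.12 in G9aKO liver. Both G9aKO signals of 1436881_x_at lay above both WT signals, and those of 1436880_at overlapped. No fold is given for probe sets that were Absent on every array, and which *Afp* transcripts or exons these probe sets cover was not determined.

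*Alb* had signals of 69480 and 63620 in WT liver and of 65620 and 57070 in G9aKO liver at 1425260_at, all Present. The higher G9aKO array lay between the WT arrays. The group means of 66550 ± 4147 and 61350 ± 6046 (SD, n = 2 each) gave a fold of 0.92 (95% interval 0.772 to 1.1) and a log2 difference of -0.12 (limma adjusted p = 0.758, SE 0.11). The files give no saturation mark for so bright a probe set, and whether saturation narrowed this difference was not tested.

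*Afm* was measured by 2 probe sets that put the arrays in the same order. At 1427440_a_at the signals were 15960 and 11080 in WT liver and 15600 and 14220 in G9aKO liver. At 1427561_a_at they were 7729 and 4996 in WT liver and 6902 and 6236 in G9aKO liver. Both G9aKO arrays lay between the WT arrays at either probe set, and the WT arrays differed 1.44-fold and 1.55-fold. The log2 differences were 0.16 (95% interval -0.26 to 0.59, adjusted p = 0.803) and 0.08 (-0.42 to 0.58, adjusted p = 0.936) by limma. Without the second WT array they turned to -0.10 and -0.24.

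The genes were also compared within each array, where any scaling factor of an array cancels. The log2 signal of *Afp* minus that of *Alb* was -8.10 and -9.10 in WT liver and -4.42 and -5.62 in G9aKO liver. Both G9aKO arrays lay above both WT arrays, by 3.58 on average and by 2.98 to 4.18 with any 1 array left out. *Afp* minus *Afm* differed by 3.30 and *Afm* minus *Alb* by 0.28 between the genotypes. With 2 arrays against 2, a two-sided exact permutation test over the 6 splits cannot give a p below 0.33, which is the p of each of these 3 differences.

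**Figure D2:**
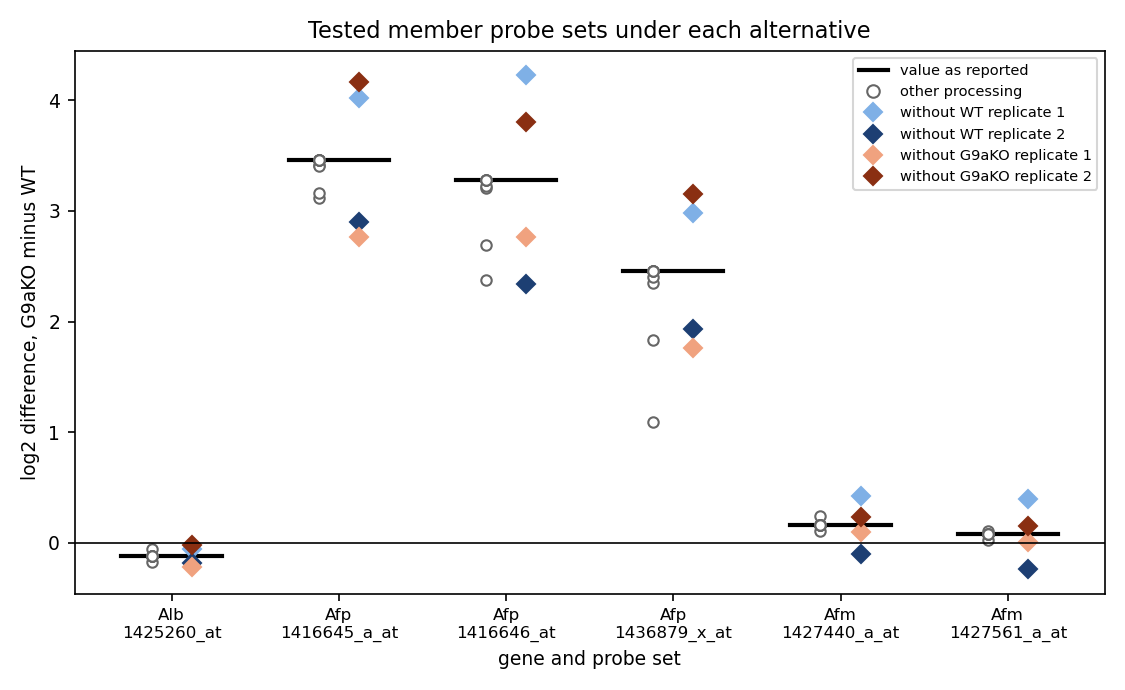
Log2 difference (G9aKO minus WT) of each tested member probe set, with a bar for the value as reported, open circles for other processing and diamonds for the fits that leave out 1 array. The *Afp* values stay above 1 in each fit shown, the *Alb* values stay between -0.22 and -0.02, and the *Afm* values fall on both sides of 0.

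The genes around the cluster were taken from the RefSeq order, from *Gc* to *Afm* with 5 annotated genes on either side, 26 genes in all. Of the 10 with a probe set that are not members, 8 were tested, and 0 passed by limma. At an unadjusted p under 0.05, 2 of the 8 were higher and 0 lower, beside 6.1% and 4.19% of all genes. The median log2 difference of the 8 was 0.03, beside 0.02 over all tested genes. Of the 8, 3 had G9aKO signals above those of WT without overlap, as for 22.3% of all genes, each at its brightest probe set. *Ankrd17* (0.01) and *Cox18* (0.00), which lie between *Gc* and *Alb*, and *Rassf6* (0.00), which lies beyond *Afm*, had differences near 0.

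*Adamts3*, a procollagen N-proteinase gene on the *Gc* side of *Alb*, had signals of 36.11 and 41.29 in WT liver and of 99.72 and 95.56 in G9aKO liver. These lay below the 95% quantile of Absent signals and only 1 array of each genotype was called Present, with a difference of 1.34 (limma adjusted p = 0.463, SE 0.47). *Albfm1*, a further albumin superfamily gene just beyond *Afm*, had signals of 482.5 and 481.3 in WT liver and of 515.3 and 217.2 in G9aKO liver. The first G9aKO array lay above both WT arrays and the second below them, with a difference of -0.53 (limma adjusted p = 0.722, SE 0.39). *Dck*, the deoxycytidine kinase gene, had a log2 difference of 0.65 (adjusted p = 0.444) and *Slc4a4*, a bicarbonate transporter gene, one of 0.19 (adjusted p = 0.7). *Gm9958* had a difference of 0.06, and *Npffr2* and *Gm7056* were Absent on all arrays.

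**Figure D3:**
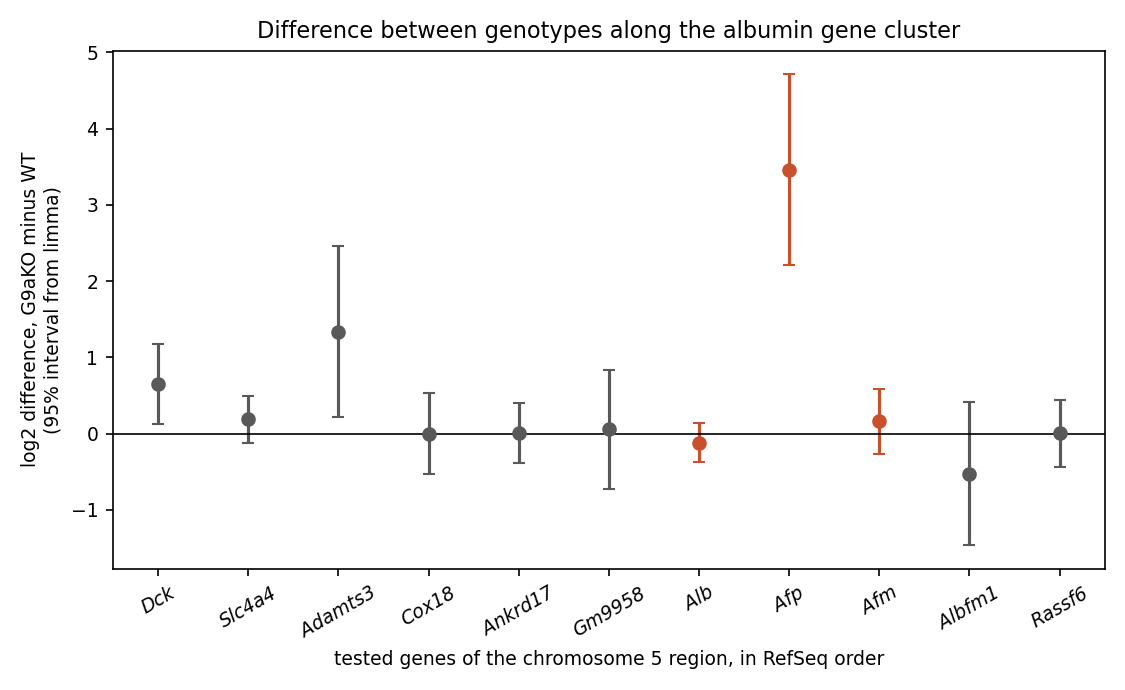
Log2 difference (G9aKO minus WT, 95% interval from limma) of the 11 tested genes in RefSeq order along chromosome 5, each at its brightest probe set, with members in red and neighbours in grey; distances are not to scale. *Afp* lies at 3.46 between *Alb* at -0.12 and *Afm* at 0.16.

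Other plasma proteins made by hepatocytes were compared next, in 14 lists of genes around the albumin family. Of the 105 genes tested in them, 0 passed in either direction by limma, while 9 were higher and 6 lower before adjustment of p. Over all 10350 genes, each at its brightest probe set, the median log2 difference was 0.02, with 0.319% past the adjusted threshold upward and 0.0676% downward, and 6.1% and 4.19% when p was not adjusted. Of 20 plasma carrier and secreted proteins, 19 were tested, their median was -0.04 and they ranged from -0.17 to 0.42. *Serpina6*, the corticosteroid-binding globulin, was the highest of them (0.42, adjusted p = 0.557), with signals of 2299 and 1652 in WT liver and of 2698 and 2509 in G9aKO liver. *Ambp*, the precursor of α1-microglobulin (-0.15, adjusted p = 0.71), and *Vtn*, vitronectin (-0.15, adjusted p = 0.756), overlapped between the genotypes. Of the 19 tested, 5 had a log2 difference above 0, beside 5528 of all 10350 genes.

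Of 15 activators of the albumin and *Afp* genes, 14 were tested, with a median of 0.04 and a range of -0.19 to 0.41. The 3 with the smallest p were the FoxA factors, which open chromatin at liver genes. *Foxa3* had signals of 2379 and 2440 in WT liver and of 2851 and 3587 in G9aKO liver (0.41, adjusted p = 0.494), *Foxa2* differed by 0.31 (adjusted p = 0.681) and *Foxa1* by 0.21 (adjusted p = 0.728). Of the 14, these 3 had G9aKO signals above those of WT without overlap, and *Nfix* had them below (-0.13, adjusted p = 0.773), as for 22.3% and 19.3% of all genes.

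Of 4 known repressors of *Afp* in adult liver, 3 were tested, with a median of -0.09. The remaining one, *Trp53*, the gene of p53, had no probe set assigned to it alone in the annotation used here. *Zhx2*, the repressor mapped through strains of mice with persistent *Afp*, had signals of 294.7 and 340.6 in WT liver and of 290.3 and 305.4 in G9aKO liver, which overlapped (-0.09, 95% interval from limma -0.61 to 0.43). *Zbtb20*, a zinc finger repressor of *Afp*, had signals of 3210 and 2514 in WT liver and of 2481 and 2523 in G9aKO liver (-0.18, adjusted p = 0.754). *Zfhx3* differed by 0.16 (adjusted p = 0.794). For these 3 genes the difference was smaller than 0.2 on the log2 scale, and protein levels were not measured here.

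Genes of fetal liver and liver tumours were tested for 10 of 16 members, with a median of 0.32 and a range of -0.36 to 1.71. *Cd24a*, a surface protein of progenitor cells, had signals of 258.9 and 194.6 in WT liver and of 1137 and 474.4 in G9aKO liver (1.71, SE 0.41, adjusted p = 0.264). *Peg3*, an imprinted zinc finger gene, differed by 0.71 (adjusted p = 0.476) and *Scd2*, a desaturase gene of fetal liver, by 0.53 (adjusted p = 0.603). Of the 10, 4 had G9aKO signals above those of WT without overlap, these 3 and *Ly6d* (0.74, adjusted p = 0.632), beside 22.3% of all genes. The median of the list was 0.05 without the first G9aKO array and 0.80 without the second. *Gpc3*, glypican 3, an oncofetal marker of hepatocellular carcinoma named after its values were seen, had signals of 87.81 and 264.9 in WT liver and of 333.4 and 73 in G9aKO liver, which overlapped (0.03). Of the 6 that were not tested, 4 were called Present on no array, among them *Dlk1*, *Igf2bp1* and *Lin28b*, while *Igf2* was Present on 1 array and *H19* had no probe set in the annotation used here.

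The vitamin D list, chosen for the ligand of the *Gc* product, had 6 of 9 members tested and a median of 0.01, with values on both sides. *Dhcr7* uses up the precursor of vitamin D in cholesterol synthesis. Its signals were 247.6, called Absent, and 342.8 in WT liver and 886 and 838.1 in G9aKO liver (1.56, SE 0.22, limma adjusted p = 0.0691). *Lrp2*, the endocytic receptor megalin, had signals of 81.97 and 65.44 in WT liver and of 258.4 and 229.8 in G9aKO liver (1.74, adjusted p = 0.14). *Cyp27a1*, a sterol hydroxylase that can hydroxylate vitamin D, had signals of 19180 and 14640 in WT liver and of 12280 and 9844 in G9aKO liver (-0.61, adjusted p = 0.354). In the list of albumin recycling, uptake and actin scavenging, 5 of 6 were tested, with a median of -0.07. *Dab2*, an endocytic adaptor, differed by 0.37, *Cav1*, caveolin 1, by -0.38, and *Gsn*, the actin scavenger gelsolin, by 0.55, with adjusted p of 0.649, 0.672 and 0.773.

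**Figure D4:**
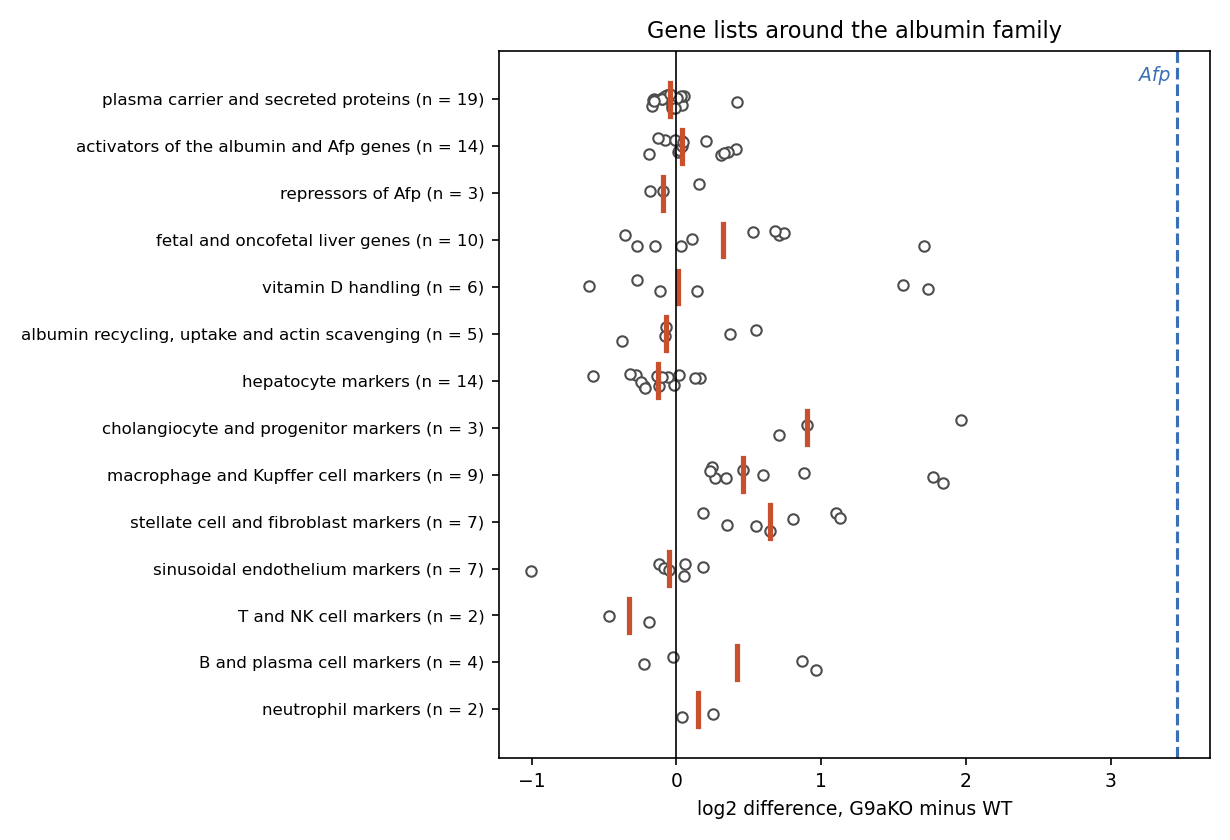
Log2 difference (G9aKO minus WT) of each tested gene in the 14 lists (open circles), with the median of each list as a red bar and the brightest *Afp* probe set as a dashed line at 3.46. The plasma carriers and the activators of the *Afp* gene lie close to 0, and no gene of the lists reaches the value of *Afp*.

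RNA came from whole liver, so that more cells of a type and more RNA per cell cannot be told apart, and marker lists of liver cell types were set beside *Afp*. Of 16 hepatocyte markers, 14 were tested and all 14 were Present on all 4 arrays, with a median of -0.13. At an unadjusted p under 0.05 by limma, 4 were lower and 0 higher, beside 4.19% and 6.1% of all genes. Among the 4 were *Hal* (-0.57, adjusted p = 0.21), *Fbp1* (-0.28, adjusted p = 0.405) and *Uox* (-0.32, adjusted p = 0.521). Without overlap, G9aKO lay below WT for 7 of the 14 and above for 0, beside 19.3% and 22.3% of all genes. The summed signal of the 14 was 545345 and 558425 in WT liver and 514100 and 490553 in G9aKO liver. The liver label was thus borne out by its defining markers.

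Of 10 markers of cholangiocytes and progenitor cells, 3 were tested, with a median of 0.90 (0.58 to 1.23 with any 1 array left out). All 3 were above 0, beside 5528 of all 10350 genes. For 2 of the 3, G9aKO lay above WT without overlap, beside 22.3% of all genes. *Pkhd1*, fibrocystin of bile duct cilia, had signals of 74.79 and 120 in WT liver and of 477.8 and 286.2 in G9aKO liver (1.97, SE 0.38, adjusted p = 0.155). *Prom1*, prominin 1, differed by 0.90 (adjusted p = 0.492), with its second WT signal called Absent. *Sox9*, a biliary transcription factor, differed by 0.71 (adjusted p = 0.677). The summed signal of the 3 was 386 and 292 in WT liver and 932 and 654 in G9aKO liver. The sum put the arrays in the order of *Afp*, but none of the 3 genes did so alone. *Pkhd1* was higher on the second WT array than on the first, and *Prom1* on the second G9aKO array than on the first. *Sox9* was higher on the first WT array (173) than on the second G9aKO array (149.5). The defining markers *Krt19*, *Krt7* and *Epcam* were Present on at most 1 array and were not tested. *Krt19*, a keratin of bile ducts, had signals of 139.4, 83.98, 159.7 and 90.24 and *Epcam*, at its brightest probe set, of 61.55, 131.3, 175 and 228.1 on the WT and then the G9aKO arrays. The part of these cells in the *Afp* difference was not tested.

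Macrophage markers were above 0 in 9 of 9 tested (10 listed), beside 5528 of all 10350 genes. For 4 of the 9, G9aKO lay above WT without overlap, beside 22.3% of all genes. The median of the 9 was 0.46. It was 0.12 without the first WT array, 0.22 without the first G9aKO array and at most 0.69 with any 1 array left out. Their summed signal was 27872 and 41843 in WT liver and 61948 and 39973 in G9aKO liver, which overlapped. *Lyz2* differed by 0.88, *Cx3cr1* by 1.77 and *Csf1r* by 0.60, with adjusted p of 0.492, 0.543 and 0.545. *Cx3cr1* was Present on only 1 array of each genotype, and its second WT signal of 21.86 was called Absent. Stellate cell and fibroblast markers were above 0 in 7 of 7 tested (10 listed), and for 5 of the 7 G9aKO lay above WT without overlap. The median of the 7 was 0.64, which was 0.20 without the first G9aKO array and 1.24 without the second. Their summed signal was 3982 and 4245 in WT liver and 8361 and 4409 in G9aKO liver. *Acta2* differed by 1.10, *Col1a2* by 0.80 and *Col3a1* by 1.13, with adjusted p of 0.21, 0.547 and 0.568. *Acta2* was Present on only 1 array of each genotype. The first G9aKO array, on which *Afp* was highest, was thus also the highest for both lists, and their part in the *Afp* difference was not tested.

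Sinusoidal endothelium had 7 of 8 markers tested, with a median of -0.05. *Lyve1*, a hyaluronan receptor of these vessels, had signals of 1025 and 1639 in WT liver and of 759 and 550.4 in G9aKO liver, without overlap, as for 19.3% of all genes (-1.0, adjusted p = 0.34 from limma), and *Fcgr2b* and *Stab1* differed by 0.18 and -0.12. T and NK cells had 2 of 8 tested (*Cd8a* -0.46, *Gzma* -0.19), B and plasma cells 4 of 6 with a median of 0.42 (*Jchain* 0.87, *Ighm* 0.96, *Cd79b* -0.22), and neutrophils 2 of 6 (*S100a9* 0.25, *S100a8* 0.04). The direction turned on 1 array: the median of B and plasma cells was -0.17 without the first G9aKO array and 0.91 without the second, and that of neutrophils -1.26 and 1.55. For T and NK cells it was -0.70 without the second WT array and 0.05 without the first, and for endothelium -0.34 and 0.17. In the T and NK, B and plasma cell and neutrophil lists the signals of each tested gene overlapped between the genotypes.

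The genes whose pattern over the 4 arrays was most like that of *Afp* were found by the Euclidean distance of log2 signals centred on their mean, among 10349 other genes. They were *Tff3* at a distance of 0.528, *Mmp7* at 0.6 and *Asns* at 0.81, and 5 genes in all lay within a distance of 1. *Tff3* encodes a trefoil factor secreted by mucous cells. Its signals were 475.6 and 216.8 in WT liver, both Absent, and 8424 and 3083 in G9aKO liver. The fold between geometric means was 15.9 (95% interval 6.63 to 38.0, adjusted p = 0.0576 from limma). *Mmp7*, the metalloproteinase matrilysin, had signals of 143.3 and 74.56 in WT liver, both Absent, and of 1248 and 461.6 in G9aKO liver. Here the fold was 7.34 (95% interval 3.11 to 17.4, adjusted p = 0.139 from limma). *Asns*, the asparagine synthetase, had signals of 659.4 and 270.5 in WT liver and of 5355 and 4441 in G9aKO liver and rose by 3.53 on the log2 scale (adjusted p = 0.0309). Like *Afp*, the 3 genes were higher on the first array than on the second within either genotype.

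*Alb* and *Afm* varied so little that many genes were like them. *Smc3*, *Zdhhc3* and *Maip1* lay nearest to *Alb*, at distances of 0.007, 0.015 and 0.018, with 9313 genes within a distance of 1. *Synj1*, *Kctd7* and *B3gat3* lay nearest to *Afm*, at 0.022, 0.025 and 0.027, with 9165 genes within a distance of 1. The 4 arrays from 2 genotypes share 1 contrast, so these distances describe the patterns only.

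**Figure D5:**
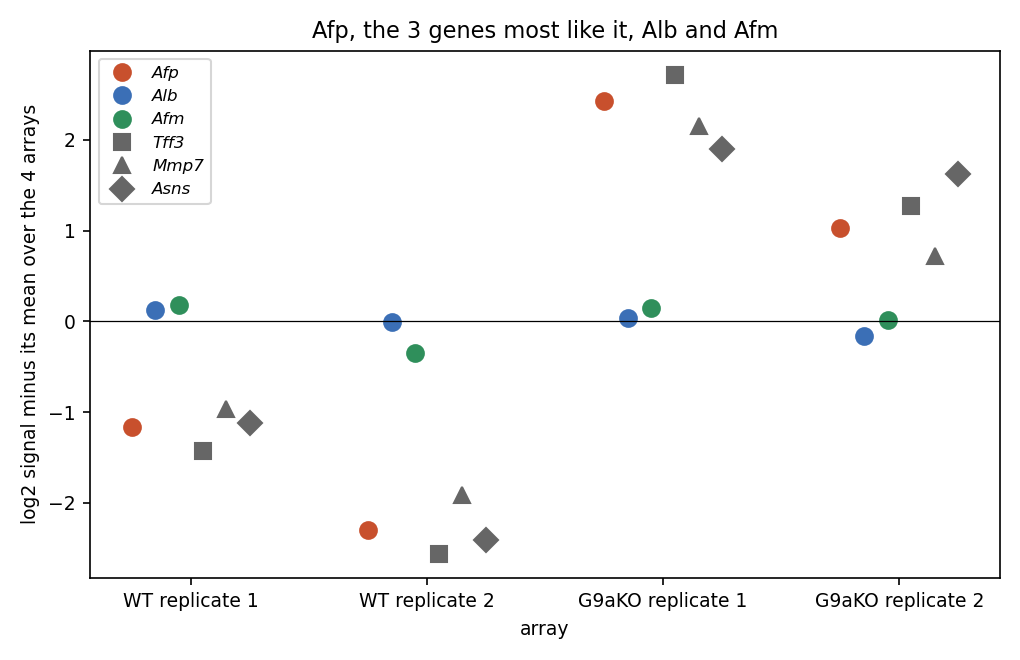
Log2 signal minus its mean over the 4 arrays for *Afp*, *Alb* and *Afm* (coloured circles) and for the 3 genes most like *Afp* (grey), on each WT and G9aKO array. *Afp*, *Tff3*, *Mmp7* and *Asns* lie below 0 on both WT arrays and above 0 on both G9aKO arrays, while *Alb* and *Afm* stay near 0.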

How the data were processed

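The authors processed the arrays with MAS5, of a version not given in the sources used here, and deposited for each of the 4 arrays a signal (linear intensity after background correction and scaling), a detection p-value and a call. The series matrix held the same signals (largest relative difference 5e-06). Samples were grouped by the genotype in the labels. Of the 45101 probe sets, 64 were controls, 34945 named 1 gene, 932 several and 9160 none; 34754 were found in RefSeq by Entrez identifier.

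Log2 signals, with no pseudocount, were compared with limma 3.58.1 in R 4.3.3 (lmFit, eBayes with a mean-variance trend, 2 residual and 4.6 prior degrees of freedom), with Benjamini-Hochberg adjustment of p over the 17158 probe sets that named 1 gene and were Present on at least 2 arrays. The script was tested on simulated data. Where both arrays of a group were Absent, signals below the lowest Present signal of the array were to be raised to it for the fold. The Absent signals of *Ehmt2*, *Tff3* and *Mmp7* already lay above that level. Their folds are therefore those of the deposited signals and no lower bounds. Nothing in the labels says whether the 2 mice of a group were independent litters, and so few arrays limit the precision.

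The named genes were all member probe sets, *Ehmt2* and the neighbours from *Gc* to *Afm* with 5 genes on either side. Also named were the 3 genes most like each member, and from each of 14 lists the members past the threshold or else the 3 with the smallest p. *Nfix*, *Ly6d*, *Gpc3*, *Dlk1*, *Igf2bp1*, *Lin28b*, *Igf2*, *H19*, *Krt19*, *Krt7* and *Epcam* were named after their values or calls had been seen. *Trp53* was named as the repressor without a probe set. The members and lists were chosen with earlier results of these data known. The alternatives were the filter on detection, an offset of 50, quantile and median scaling, no trend, 1 probe set a gene, the methods' t-test, the series matrix and leaving out each array. Signals raised to the 95% quantile of Absent signals and the difference of *Afp* and *Alb* within an array were added after seeing the data. Promoters came from RefSeq (GRCm38.p6).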

Additional observations from a re-analysis of the deposited data

How the results depend on the processing

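Other filters on detection, no trend, 1 probe set a gene, the t-test and the series matrix leave each member's log2 difference as it is. These alternatives could change at most the adjusted p. Of 74 alternative fits with a test for the 6 tested member probe sets, 71 kept the direction and the side of the threshold. The exceptions were *Afp* 1416645_a_at without the second G9aKO array (4.162, adjusted p = 0.0166), and *Afm* 1427440_a_at (-0.1) and 1427561_a_at (-0.236) without the second WT array. Raising signals to the 95% quantile of Absent signals has no test and kept each direction, but *Afp* 1436879_x_at moved to 1.09, by more than the spread between replicates, and *Afp* 1416646_at was at 2.38. With 1 array left out, *Afp* 1416645_a_at ranged from 2.762 to 4.162, *Afp* 1436879_x_at from 1.757 to 3.156, *Afm* 1427440_a_at from -0.1 to 0.426 and *Afm* 1427561_a_at from -0.236 to 0.393. Over all alternatives the adjusted p of *Afp* 1416645_a_at ranged from 0.0166 to 0.65.

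Calls over all probe sets, 40 higher and 8 lower, were 25 and 5 with no filter on detection. They were 0 and 0 by limma without the mean-variance trend (970 and 513 at an unadjusted p under 0.05) and 0 and 0 by the methods' t-test (685 and 667). Leaving out 1 array gave 17 to 62 higher and 0 to 22 lower, with the 0 without the first WT array (382 at an unadjusted p under 0.05 by limma).

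Of 182 alternative list medians, 173 moved by less than the spread between replicates. With no filter on detection, no trend, 1 probe set a gene, the t-test or the series matrix the medians stayed the same. Requiring Present calls on all 4 arrays left fewer genes in some lists and changed their medians. Among these, the vitamin D median went from 0.013 to -0.194 and that of fetal liver genes from 0.318 to 0.532. The median of cholangiocyte and progenitor markers went from 0.903 to 1.337 and that of macrophage markers from 0.462 to 0.344. The recycling list was at 0.001 with quantile scaling and -0.131 with median centring, and the hepatocyte markers at -0.05 and -0.183. With 1 array left out, the medians of the repressors of *Afp* ranged from -0.126 to 0.015, of fetal liver genes from 0.048 to 0.801, of hepatocyte markers from -0.191 to -0.107, of vitamin D genes from -0.188 to 0.233, of activators from -0.077 to 0.13, of plasma carriers from -0.156 to 0.025 and of sinusoidal endothelium from -0.335 to 0.175. The cause was not tested. No paired analysis was possible because the labels give the mice no replicate numbers. With 2 arrays a group, signals under about 180.88 lie in the range of Absent ones even where the call is Present.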

Other observations

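*Dbp*, a clock-controlled transcription factor that also activates the albumin promoter, was named after its values were seen. Its signal was 422.9 and 6760 in WT liver, against 614.5 and 7350 in G9aKO liver, so that it was high on the second array of either genotype and low on the first, while *Afp* was higher on the first of each. The replicate numbers follow the order of the samples and pair no mice, and the labels give no time of day.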
